A study of Mus musculus with 7 samples.

Results

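Genes of the cell cycle were followed in the liver mRNA of 3 WT mice and 4 TET1 KO mice. The set held 42 genes out of 51426 in the count tables, listed by gene symbol with earlier results of these data known: 18 genes of S phase entry and DNA replication, 23 genes of G2, mitosis and cytokinesis, and the G1 cyclin gene Ccnd1. All 7 mice were males of a strain that the labels give as C57BL/6J, and all had been fed an HFD for 16 weeks from 8 weeks of age. The TET1 KO mice lacked the DNA demethylase TET1 in the whole body, through an allele from the B6;129S4-Tet1tm1.1Jae/J stock, and the WT mice were littermates without it. Because the deletion was not restricted to the liver, a difference in liver mRNA cannot be assigned to liver cells. Mice on another diet were not analysed here, so the comparison is of genotypes under the HFD alone.

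Cells divide by passing from G1 through DNA synthesis in S phase to mitosis. D-type cyclins drive G1, E2F transcription factors switch on the replication genes, the MCM helicase is loaded on origins and unwinds DNA, and a later wave of genes builds the spindle and splits the cell. Most hepatocytes of an adult liver are quiescent but can re-enter the cycle after injury, and many are polyploid.

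Libraries held between 15005277 and 22746138 counts, and 14754 genes passed edgeR's filter on low counts. Levels are given as CPM, counts scaled to the library size corrected by TMM. Calls rest on edgeR's quasi-likelihood test, with a limit of 0.05 on the p adjusted by Benjamini-Hochberg. The labels name separate mice but give no litter or batch. The targeted gene, Tet1, was near the floor in both genotypes (counts of 1, 4 and 1 in WT, and of 2, 1, 4 and 1 in TET1 KO), so it does not check the genotype labels. The 8 hepatocyte markers summed to between 71022 and 89341 CPM in WT and between 86532 and 93681 CPM in TET1 KO livers. In bulk tissue, fewer cells of a type and less RNA per cell cannot be told apart.

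The promoters of replication genes often hold an E2F motif, and 3 of them are shown because Tk1 rose while Mcm5 and Mcm6 had lower values. The sequences are from the RefSeq promoter windows (GRCm38.p6) and hold only bases before the first base of the gene's RefSeq span, 5′ to 3′ on the strand of the gene. Capitals mark the letters TTTCCCGC, TTTGGCGC, TTTCGCGC or TTTGCCGC read on either strand. Mcm5 lies at chr8:75109259-75109467 (plus strand), Mcm6 at chr1:128359706-128359955 (minus strand) and Tk1 at chr11:117826088-117826264 (minus strand, within the span of its neighbour Afmid).
Mcm5: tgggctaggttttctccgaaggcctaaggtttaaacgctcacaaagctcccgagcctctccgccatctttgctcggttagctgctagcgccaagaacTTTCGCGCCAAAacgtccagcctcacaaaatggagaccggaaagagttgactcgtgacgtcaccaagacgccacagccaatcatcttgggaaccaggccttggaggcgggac
Mcm6: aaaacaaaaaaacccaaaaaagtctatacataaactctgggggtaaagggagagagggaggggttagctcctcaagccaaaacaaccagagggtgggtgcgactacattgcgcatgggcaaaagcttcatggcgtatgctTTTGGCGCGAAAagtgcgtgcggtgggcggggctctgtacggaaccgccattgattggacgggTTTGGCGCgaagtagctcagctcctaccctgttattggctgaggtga
Tk1: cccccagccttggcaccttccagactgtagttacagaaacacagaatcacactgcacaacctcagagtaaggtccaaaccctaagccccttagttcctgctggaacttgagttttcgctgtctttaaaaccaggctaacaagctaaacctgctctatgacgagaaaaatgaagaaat
Mcm5 held 2 overlapping matches that began 112 and 108 bases before the gene. Mcm6 held 3, at 110, 106 and 47 bases. The Tk1 stretch held none of these letters. A listed window of Mcm7 also held the letters, and Mcm7 was not lower. The windows of Mcm2 and Mcm3 did not hold them, and both genes had lower values that edgeR did not call. Whether the letters go with the direction of the values was not tested.

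Motifs were counted in the 250 bases before each transcript start that the promoter table lists, some of which lie inside the gene's whole span. A window was listed for 15 of the S phase genes and 18 of the mitotic genes. The E2F letters were found in 4 of the 15 (Mcm5, Mcm6, Mcm7 and Cdc6) and in 1 of the 18 (Cdk1), against 2.16% of 27025 genes. CCAAT, the letters bound by NF-Y, was found in 9 of the 15 and 16 of the 18, against 37.5%. TTTGAA, a cell cycle homology region of late cell cycle genes, was found in 2 of the 15 and 7 of the 18, against 18.3%. Each motif was searched on both strands, overlaps were allowed, and a gene counted if any of its windows held the letters. The match is a description of letters and does not show binding.

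Of the 42 genes, 35 could be tested and 2 were called, against 2.02% of all genes tested. Tk1 was higher in TET1 KO livers, where 0.874% of all genes were called higher, and Ccnd1 was lower, where 1.15% were called lower. None of the 17 tested mitotic genes was called by edgeR or by DESeq2, and 4 of them had an unadjusted p under 0.05 in edgeR, all with lower values. Of the 17 tested S phase genes, 8 had lower values and 1 a higher value at an unadjusted p under 0.05, against 12.7% and 13.6% of all genes. Negative log2 fold changes were found for 30 of the 35 genes, against 48.9% of all genes tested. The median log2 fold change was -0.51 over the S phase genes and -0.58 over the mitotic genes, against 0.01 over all genes tested. The filter asked for its limit in any 3 libraries. For the mitotic genes Bub1b, Kif20a and Racgap1, all 3 WT libraries reached it. Fewer TET1 KO libraries did, with 0, 2 and 1 in that order. Of these genes, only Bub1b passed through the WT libraries alone. The filter favoured lower TET1 KO values for these genes, most of all for Bub1b, which no TET1 KO library carried over the limit, so the mitotic median and the counts that include them cannot be read as support.

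**Figure D1:**
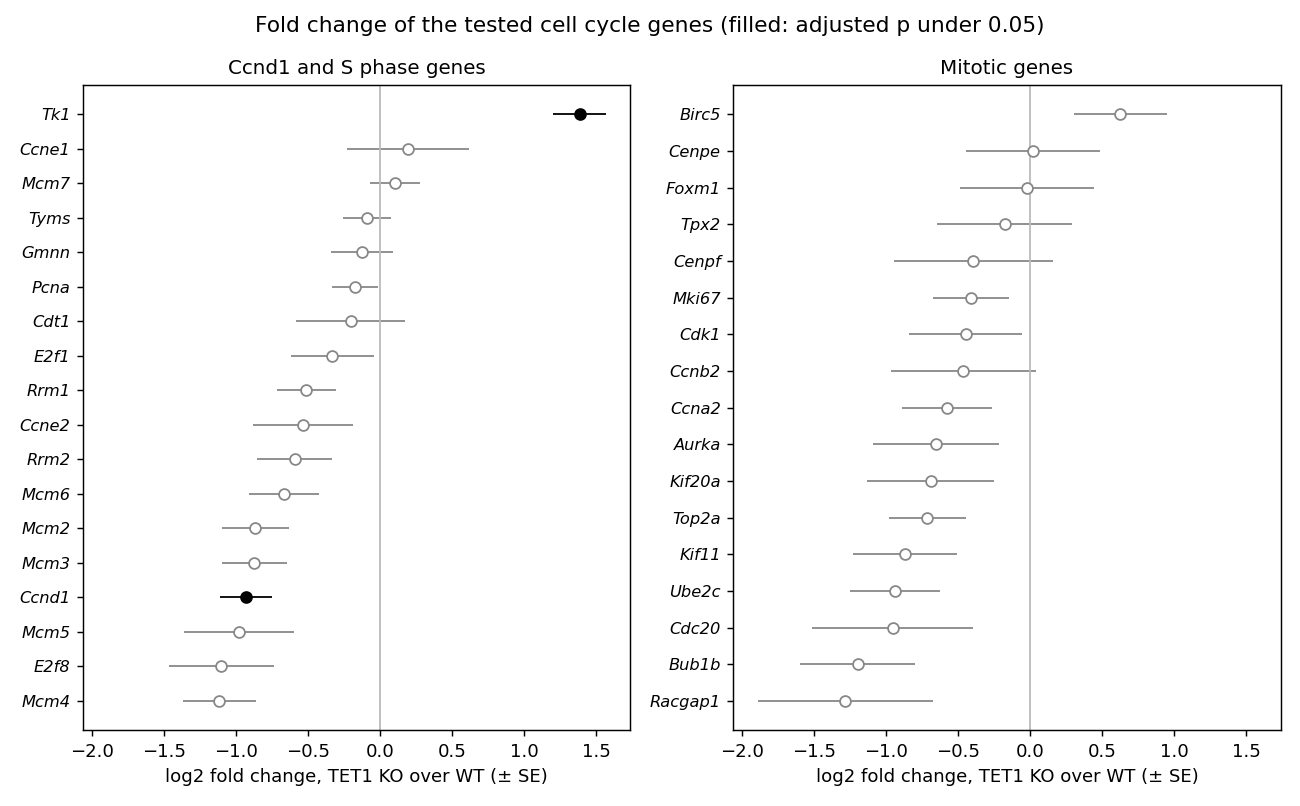
Log2 fold change of each tested gene (TET1 KO over WT, x axis, ± standard error), with Ccnd1 and the S phase genes on the left and mitotic genes on the right. Filled points are the 2 genes called, Tk1 at 1.38 and Ccnd1 at -0.93, and most open points lie to the left of 0.

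Ccnd1, encoding cyclin D1, the partner of CDK4 and CDK6 that moves cells through G1, fell in TET1 KO livers. Its gene (ENSMUSG00000070348) spans chr7:144929931-144939831. It measured 36.7, 54.4 and 36.5 CPM in WT replicates 1 to 3 and 17.7, 24.2, 21.4 and 25.9 CPM in TET1 KO replicates 1 to 4. The groups did not overlap, and the WT mean was 1.91-fold higher (log2 fold change -0.93 ± 0.18 SE, adjusted p = 0.0312, edgeR). The call was lost without WT replicate 2 (adjusted p = 0.149), whose level was the highest, and without TET1 KO replicate 1 (0.0548), 2 (0.0641) or 3 (0.0952), over a range of 0.000592 to 0.149 for all alternatives. The gene shares 818 bases with LTO1, which differed less between the genotypes (log2 fold change -0.22).

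The other D-type cyclin genes had higher values in TET1 KO livers. Ccnd2, encoding cyclin D2, measured 12.4, 10.9 and 13.7 CPM in WT and 28.6, 19.7, 18.9 and 15.1 CPM in TET1 KO livers. All TET1 KO livers lay above all WT livers, but the difference was not called (log2 fold change 0.74 ± 0.21 SE, adjusted p = 0.0781, edgeR). DESeq2 (adjusted p = 0.0288) and edgeR without TET1 KO replicate 4 (0.0368) called it higher, over a range of 0.0288 to 0.313 for the alternatives. Ccnd3 had a log2 fold change of 0.35 (adjusted p = 0.135, edgeR). The count ratio of Ccnd2 to Ccnd1 within a liver was 0.304 ± 0.0921 (SD, n = 3) in WT and 0.973 ± 0.447 (SD, n = 4) in TET1 KO livers, without overlap. Of the cyclin-dependent kinases of G1, Cdk4 had a log2 fold change of 0.11. Cdk6 had lower values in every TET1 KO liver (log2 fold change -0.49, adjusted p = 0.101, edgeR), and neither was called.

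**Figure D2:**
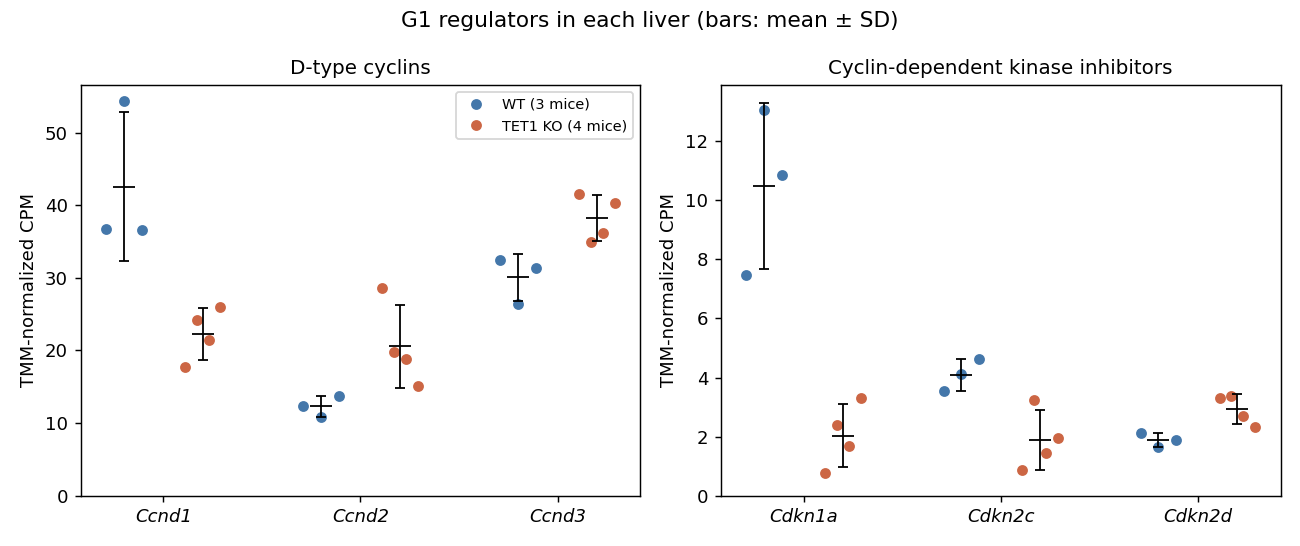
TMM-normalized CPM (y axis) of D-type cyclins on the left and cyclin-dependent kinase inhibitors on the right in each WT (blue, 3 mice) and TET1 KO liver (orange, 4 mice), with bars for mean ± SD. Ccnd1 and Cdkn1a are lower in every TET1 KO liver, and Ccnd2 is higher in every one.

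Of the MCM genes, Mcm2 to Mcm6 had lower values in TET1 KO livers and Mcm7 did not. The MCM genes encode the subunits of the replicative helicase. Mcm4, whose fold change was the largest of them, measured 4.38, 7.21 and 4.14 CPM in WT and 1.82, 2.39, 2.66 and 2.78 CPM in TET1 KO livers. The groups did not overlap and the adjusted p lay just above the threshold (log2 fold change -1.12 ± 0.25 SE, adjusted p = 0.0512, edgeR), with a range of 0.00811 to 0.251 over the alternatives.

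Mcm3 measured 7.14, 7.71 and 5.08 CPM in WT and 2.63, 3.80, 3.63 and 4.41 CPM in TET1 KO livers. Mcm2 measured 5.27, 6.76 and 4.47 CPM in WT and 2.88, 3.87, 2.30 and 3.11 CPM in TET1 KO livers. Neither gene overlapped between genotypes, and the log2 fold change was -0.87 for each (adjusted p = 0.0655 for Mcm3 and 0.0694 for Mcm2, edgeR). Mcm6 was also without overlap (log2 fold change -0.67, adjusted p = 0.122), while Mcm5 overlapped (log2 fold change -0.98, adjusted p = 0.142). The summed CPM of Mcm2 to Mcm6 was 23.6 to 34.7 in WT and 10.6 to 17.8 in TET1 KO livers. DESeq2 called Mcm2, Mcm3 and Mcm4 lower.

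Mcm7, which encodes a subunit of the same helicase, did not follow. It measured 11.4, 12.02 and 9.60 CPM in WT and 9.89, 11.3, 14.7 and 11.2 CPM in TET1 KO livers, and these ranges overlapped (log2 fold change 0.10 ± 0.17 SE, adjusted p = 0.730, edgeR). The ratio of Mcm7 to Mcm4 counts within a liver was 2.19 ± 0.477 (SD, n = 3) in WT and 4.94 ± 0.702 (SD, n = 4) in TET1 KO livers, without overlap. Mcm7 overlaps the gene Ap4m1 by 91 bases, and Ap4m1 was higher without overlap between genotypes (log2 fold change 0.53, adjusted p = 0.0915, edgeR). Whether the counting used strand is not given in the sources used here, so reads of the shared bases are uncertain. Cdt1, the licensing factor, and Gmnn, its inhibitor geminin, had log2 fold changes of -0.20 and -0.13 and were not called.

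**Figure D3:**
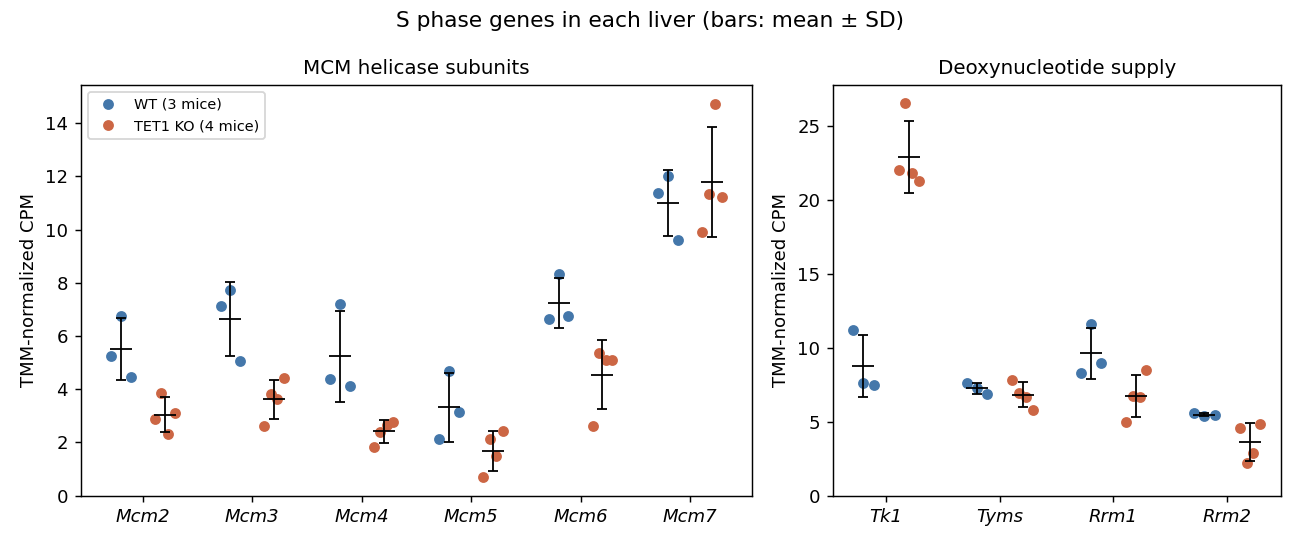
TMM-normalized CPM (y axis) of the MCM helicase genes on the left and of genes of deoxynucleotide supply on the right in each WT (blue, 3 mice) and TET1 KO liver (orange, 4 mice), with bars for mean ± SD. Mcm2, Mcm3, Mcm4 and Mcm6 are lower in every TET1 KO liver and Tk1 is higher in every one, while Mcm7 overlaps.

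Among genes of deoxynucleotide supply, Tk1 rose while the others did not. Tk1 encodes the cytosolic thymidine kinase, a salvage enzyme of S phase, and its gene (ENSMUSG00000025574) spans chr11:117815519-117826087 on the minus strand. It measured 11.2, 7.59 and 7.51 CPM in WT and 22.0, 26.6, 21.8 and 21.2 CPM in TET1 KO livers. Each TET1 KO liver exceeded each WT liver, with a 2.61-fold higher level (log2 fold change 1.38 ± 0.18 SE, adjusted p = 0.00708, edgeR). Tk1 stayed called in all 7 fits that left out 1 mouse, with adjusted p between 0.00725 and 0.0489.

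The other enzymes of this group had lower or similar values. Rrm1 and Rrm2 encode the subunits of ribonucleotide reductase. Rrm2 measured 5.61, 5.39 and 5.46 CPM in WT and 4.57, 2.18, 2.86 and 4.82 CPM in TET1 KO livers, without overlap (log2 fold change -0.59, adjusted p = 0.182). Rrm1 had a log2 fold change of -0.51 (adjusted p = 0.147), and Tyms, thymidylate synthase, one of -0.09 (adjusted p = 0.747, edgeR). The Tk1 to Tyms count ratio was 1.20 ± 0.234 (SD, n = 3) in WT and 3.39 ± 0.446 (SD, n = 4) in TET1 KO livers.

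Tk1 overlaps the kynurenine formamidase gene Afmid (chr11:117825503-117839908, plus strand) by 585 bases, and Afmid was also called higher. Afmid measured 40.9, 40.7 and 30.1 CPM in WT and 64.0, 73.3, 62.4 and 63.6 CPM in TET1 KO livers (log2 fold change 0.82 ± 0.14 SE, adjusted p = 0.0214, edgeR). The count ratio of Tk1 to Afmid was 0.236 ± 0.0452 (SD, n = 3) in WT and 0.348 ± 0.0118 (SD, n = 4) in TET1 KO livers, again without overlap, so Tk1 differed by more. Beyond Afmid lies Birc5 (chr11:117849237-117855743), a mitotic gene of the set, with a log2 fold change of 0.63 (adjusted p = 0.237). Of further neighbours, none of which was called, Tha1, Syngr2, Tmc8 and Tmc6 had log2 fold changes of 0.50, 0.17, 0.03 and -0.35. These neighbours other than Birc5 were named after their values were seen, and the part of reads shared with Afmid in the Tk1 difference was not tested.

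**Figure D4:**
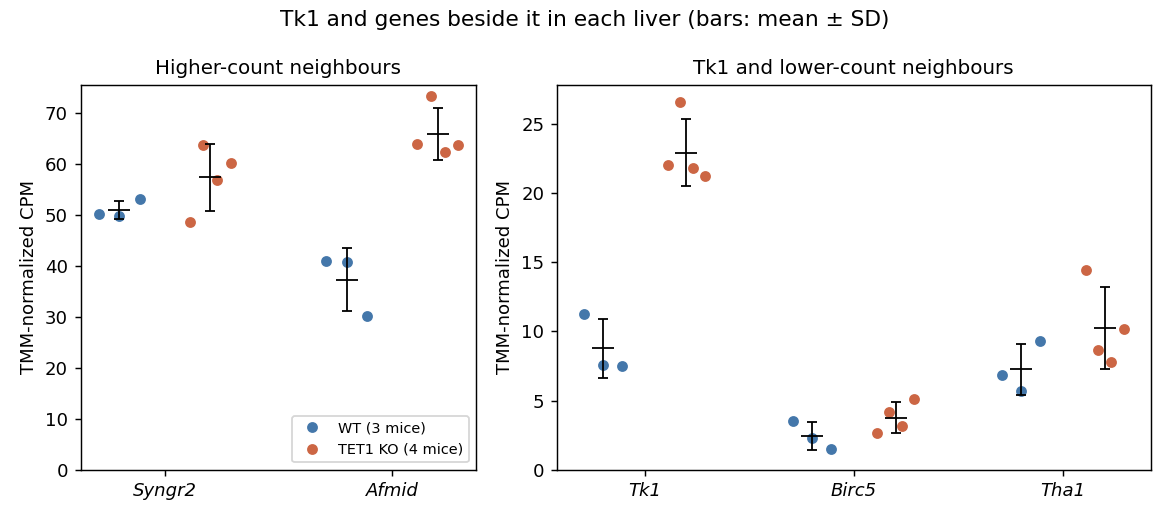
TMM-normalized CPM (y axis) of Tk1 and neighbouring genes in each WT (blue, 3 mice) and TET1 KO liver (orange, 4 mice), with bars for mean ± SD and separate scales for the panels. Tk1 and Afmid are higher in every TET1 KO liver, while Birc5, Tha1 and Syngr2 overlap.

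The E2F and cyclin E genes were not called with all 7 livers. E2f8, encoding an atypical E2F repressor linked to hepatocyte polyploidy, measured 3.35, 2.49 and 2.98 CPM in WT and 1.69, 0.77, 0.72 and 2.18 CPM in TET1 KO livers. The groups did not overlap (log2 fold change -1.10 ± 0.36 SE, adjusted p = 0.100, edgeR). It was called lower without TET1 KO replicate 4 (adjusted p = 0.0441), over a range of 0.0331 to 0.287 for the alternatives. E2f1 overlapped, with a log2 fold change of -0.33. Ccne1, encoding cyclin E1, measured 0.74, 0.87 and 0.66 CPM in WT and 1.57, 0.77, 0.72 and 0.51 CPM in TET1 KO livers, and its direction turned without TET1 KO replicate 1 (log2 fold change 0.19 with and -0.21 without it). Ccne2 had a log2 fold change of -0.54. Pcna, the sliding clamp of the fork, measured 17.3, 16.8 and 18.1 CPM in WT and 11.5, 16.98, 16.5 and 16.6 CPM in TET1 KO livers, where replicate 1 alone lay far below the others (log2 fold change -0.18, adjusted p = 0.497, edgeR).

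Mitotic genes were counted less deeply, with a median of 14.1 counts per library against 86.7 for the S phase genes. The median standard error of their log2 fold changes was 0.44, against 0.24. The 5 with the smallest p were Ube2c, Bub1b, Top2a, Kif11 and Racgap1, and their values were lower in TET1 KO livers, a direction that the filter favoured for Bub1b and Racgap1. Ube2c, encoding the ubiquitin-conjugating enzyme of the anaphase-promoting complex, measured 1.62, 1.37 and 1.49 CPM in WT and 0.50, 0.70, 0.82 and 1.02 CPM in TET1 KO livers (log2 fold change -0.94 ± 0.31 SE, adjusted p = 0.103, edgeR). Bub1b, of the spindle checkpoint, measured 0.74, 0.79 and 0.83 CPM in WT and 0.38, 0.35, 0.41 and 0.23 CPM in TET1 KO livers (log2 fold change -1.20 ± 0.40 SE, adjusted p = 0.103). Top2a, encoding DNA topoisomerase II alpha, measured 2.07, 2.28 and 2.76 CPM in WT and 1.13, 1.34, 1.28 and 1.95 CPM in TET1 KO livers (log2 fold change -0.71 ± 0.27 SE, adjusted p = 0.132). Neither Ube2c, Bub1b nor Top2a overlapped between genotypes.

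The remaining tested mitotic genes overlapped, apart from Ccna2. Kif11, a spindle motor, measured 1.72, 0.95 and 1.27 CPM in WT and 0.75, 1.06, 0.56 and 0.56 CPM in TET1 KO livers (log2 fold change -0.87, adjusted p = 0.161, edgeR). Racgap1, of the cytokinesis machinery, measured 1.53, 0.99 and 0.61 CPM in WT and 0.00, 0.49, 0.36 and 0.79 CPM in TET1 KO livers (log2 fold change -1.28, adjusted p = 0.204). The proliferation marker Mki67 measured 3.002, 3.36 and 2.32 CPM in WT and 1.38, 2.25, 2.35 and 2.69 CPM in TET1 KO livers, a difference within the spread (log2 fold change -0.41 ± 0.27 SE, adjusted p = 0.338). Cdk1, the mitotic kinase, measured 2.41, 0.99 and 1.27 CPM in WT and 0.63, 1.20, 1.13 and 1.53 CPM in TET1 KO livers (log2 fold change -0.45, adjusted p = 0.476). Cdk1 was the only gene of the set on chromosome 10, where it lies 6.45 Mb from Tet1. Foxm1, a transcription factor of the mitotic program, measured 0.69, 0.58 and 0.44 CPM in WT and 0.50, 0.28, 0.46 and 0.93 CPM in TET1 KO livers (log2 fold change -0.02, adjusted p = 0.980).

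Ccna2, encoding cyclin A2, had lower values in every TET1 KO liver (log2 fold change -0.58, adjusted p = 0.261, edgeR). Ccnb2, Cdc20, Aurka, Kif20a, Cenpf and Tpx2 had log2 fold changes between -0.95 and -0.18. Cenpe, a kinetochore motor, had one of 0.02, and Birc5, encoding survivin, one of 0.63.

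Low counts kept 7 genes from passing edgeR's filter. DESeq2 and edgeR without the filter fitted all 42 genes and called none of these 7. The S phase gene Cdc6, which loads the MCM helicase, had 17, 10 and 5 counts in WT and 2, 5, 4 and 4 in TET1 KO livers. Ccnb1, encoding cyclin B1, had 10, 6 and 1 counts in WT and 3, 1, 2 and 9 in TET1 KO livers. Anln, encoding the cytokinesis protein anillin, had 12, 18 and 9 counts in WT and 8, 6, 7 and 5 in TET1 KO livers, and the groups overlapped in CPM. Hmmr, a spindle gene, had 15, 18 and 8 counts in WT and 6, 6, 5 and 3 in TET1 KO livers, with no overlap in counts or CPM. Bub1, Aurkb and Plk1 had between 0 and 12 counts per library and overlapped.

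The livers of 1 genotype were not alike. Over the 35 tested genes, the highest level lay in WT replicate 2 for 13 genes and in WT replicate 1 for 10, and the lowest lay in TET1 KO replicate 1 for 14. Neither WT replicate 1 nor 2 held the lowest level of any gene, whereas WT replicate 3 did so for 4. The mean log2 CPM of the S phase genes, relative to all 7 livers, ranged from 0.04 to 0.41 in WT and from -0.24 to -0.05 in TET1 KO livers. The summed CPM of all 18 S phase genes, Tk1 included, overlapped, with 93.5 to 115 in WT and 86.9 to 102 in TET1 KO livers. For the mitotic genes the ranges of the mean log2 CPM met, as TET1 KO replicate 4 reached 0.17 and WT replicate 3 only 0.10. Without overlap between genotypes, 11 of the 35 genes were lower, against 10.8% of all genes, and 1 was higher, against 11.7%. The lower ones were 6 S phase genes, 4 mitotic genes and Ccnd1, and they include Bub1b, which entered the test through the WT libraries alone.

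**Figure D5:**
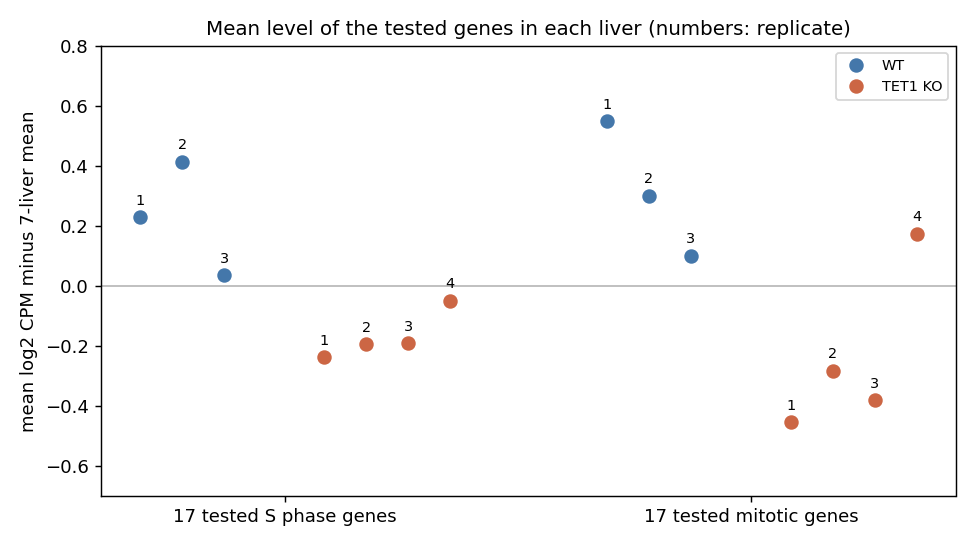
Mean log2 CPM of the tested S phase and mitotic genes in each liver minus the mean of all 7 livers (y axis), for WT (blue) and TET1 KO (orange), with the replicate number above each point. The S phase means of the TET1 KO livers, -0.24 to -0.05, lie below all WT livers, while for mitotic genes TET1 KO replicate 4 (0.17) lies above WT replicate 3 (0.10).

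Wider lists gave few further calls. Of 30 further S phase genes, 26 were tested and 1, Chaf1a, was called lower, against 1.15% of all genes. Chaf1a (ENSMUSG00000002835, chr17:56040416-56068026), the large subunit of the histone chaperone CAF-1, measured 1.87, 2.28 and 2.10 CPM in WT and 0.56, 0.92, 0.41 and 0.79 CPM in TET1 KO livers, without overlap (log2 fold change -1.65 ± 0.31 SE, adjusted p = 0.0286, edgeR). It was called in 2 of the 7 fits that left out 1 mouse and lost without WT replicate 2 (adjusted p = 0.149), WT replicate 3 (0.0580) or TET1 KO replicate 1 (0.0587), 2 (0.0502) or 3 (0.0819). Of the 26, 9 had lower and 1 a higher value at an unadjusted p under 0.05, against 12.7% and 13.6% of all genes, and the median log2 fold change was -0.36. Of 38 further mitotic genes 24 were tested, none was called by edgeR, and 4 had lower and 1 a higher value at an unadjusted p under 0.05, against 12.7% and 13.6% of all genes, with a median of -0.27. In this list 4 genes reached the filter's limit in all 3 WT but in fewer than 3 TET1 KO libraries, as did 3 further S phase genes. Of these, Ncaph and Dtl passed through the WT libraries alone. The counts and medians of both lists therefore include genes for which the filter favoured lower values.

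Of 17 genes of G1 cyclins, kinases and transcription factors, 16 were tested and none was called, with 3 lower and 2 higher at an unadjusted p under 0.05 (edgeR), against 12.7% and 13.6% of all genes, and a median log2 fold change of 0.14. Myc, the growth-promoting transcription factor, measured 3.64, 1.53 and 1.49 CPM in WT and 9.39, 1.55, 0.72 and 1.39 CPM in TET1 KO livers. For Myc, the log2 fold change of 0.53 rested on TET1 KO replicate 1 and was -0.88 without it. E2f7, the other atypical E2F, had 6, 7 and 11 counts in WT and 4, 6, 6 and 3 in TET1 KO livers and was not tested.

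Among 16 inhibitors of proliferation, 14 were tested and 1, Cdkn1a, was called lower, against 1.15% of all genes. At an unadjusted p under 0.05, 3 of the 14 were lower and 1 was higher, against 12.7% and 13.6% of all genes, and the median log2 fold change was -0.22, against 0.01 over all genes. Cdkn1a (ENSMUSG00000023067, chr17:29090979-29100722, plus strand) encodes p21, the p53-inducible inhibitor of cyclin-dependent kinases that arrests cells. It measured 7.48, 13.1 and 10.9 CPM in WT and 0.75, 2.39, 1.69 and 3.29 CPM in TET1 KO livers. The groups stood well apart, with a WT level 5.09-fold higher (log2 fold change -2.35 ± 0.36 SE, adjusted p = 0.0132, edgeR). The call was lost without WT replicate 2 (adjusted p = 0.0897) or TET1 KO replicate 3 (0.0552) and kept in the other 5 such fits. A gene that arrests the cycle and Ccnd1, a gene that drives it, were both lower in the same livers, and their count ratio, Ccnd1 to Cdkn1a, was 4.14 ± 0.771 (SD, n = 3) in WT and 13.6 ± 6.97 (SD, n = 4) in TET1 KO livers.

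Ccng1, encoding cyclin G1, another p53 target, measured 43.6, 62.9 and 43.9 CPM in WT and 16.0, 33.5, 23.1 and 30.1 CPM in TET1 KO livers, without overlap (log2 fold change -0.97 ± 0.23 SE, adjusted p = 0.0590, edgeR). DESeq2 (adjusted p = 0.00446) and edgeR without TET1 KO replicate 4 (0.0437) called it lower, over a range of 0.00446 to 0.272 for the alternatives. Ccng2 had a log2 fold change of -0.22 (11.4, 9.33 and 6.46 CPM in WT and 6.89, 6.97, 8.34 and 8.95 CPM in TET1 KO livers). Cdkn1b, encoding p27, measured 27.9, 22.6 and 29.4 CPM in WT and 31.2, 32.8, 27.9 and 26.5 CPM in TET1 KO livers (log2 fold change 0.15, adjusted p = 0.513, edgeR). Of the INK4 kinase inhibitors, Cdkn2c had lower values in every TET1 KO liver (log2 fold change -1.14, adjusted p = 0.0862) and Cdkn2d higher values in every one (log2 fold change 0.63, adjusted p = 0.133, edgeR). Trp53 itself had a log2 fold change of 0.13 and was not called.

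Markers of other cells that could carry cycling genes were measured beside these results, and none of their tested genes was called. The summed T and NK cell markers were 4.81 to 9.05 CPM in WT and 7.33 to 15.1 CPM in TET1 KO livers, and the B and plasma cell markers were 11.4 to 29.2 and 21.7 to 58.8 CPM. The lymphocyte sums of the genotypes overlapped, and the highest of each, 15.1 and 58.8 CPM, lay in TET1 KO replicate 2. Macrophage markers lay between 200 and 344 CPM in WT and between 181 and 364 CPM in TET1 KO livers. Erythroid markers were 569 to 610 CPM in WT and 161, 348, 314 and 792 CPM in TET1 KO replicates 1 to 4, so that replicates 1 to 3 lay below every WT liver. Of the 6 tested erythroid genes, 5 had negative log2 fold changes. The other 1 went the opposite way (log2 fold change 0.73) and was higher in every TET1 KO liver. Within the TET1 KO group the order of the erythroid sums was that of the mean mitotic level, lowest in replicate 1 and highest in replicate 4. The macrophage sums had the same order, with 181, 278, 189 and 364 CPM in TET1 KO replicates 1 to 4. In WT replicates 1 to 3 the erythroid sums were 606, 610 and 569 CPM. The mitotic means there, 0.55, 0.30 and 0.10, had another order. Neutrophil markers were 2.07 to 33.2 and 1.31 to 8.66 CPM, with the highest sum in WT replicate 3 and no count of Ly6g in the other libraries. Stellate cell markers were 233 to 402 CPM in WT and 219 to 293 CPM in TET1 KO livers. The collagen genes among them had log2 fold changes of -0.96 for Col1a1, -0.84 for Col1a2, without overlap, and -0.99 for Col3a1, with adjusted p between 0.0853 and 0.101 (edgeR), and their values were highest in WT replicate 1. The other 5 stellate markers, Dcn, Lrat, Reln, Pdgfrb and Des, had log2 fold changes between -0.39 and 0.35. Endothelial markers were 143 to 145 and 118 to 141 CPM. Cholangiocyte markers were higher in TET1 KO livers without overlap, with 46.2 to 68.0 CPM against 29.7 to 37.9 CPM. The part of these cells in the differences above was not tested.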

How the data were processed

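Poly(A) or rRNA-depleted liver RNA from 3 WT and 4 TET1 KO mice had been sequenced. The authors deposited 1 table of raw read counts per gene and mouse, not normalized. Per the labels, reads were trimmed with Trimmomatic 0.36, aligned with GSNAP to GRCm38 and counted with featureCounts 1.5.3. The kit marked strand, but the strand and multimapping settings and the annotation release are not given in the sources used here, so overlapping genes are uncertain. RNA was enriched by poly(A) selection or, alternatively, rRNA depletion, and the labels do not say which was used for a sample.

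Tables were joined by Ensembl identifier, 5 repeated entries were left out, and 26 symbols that differed between tables were taken by identifier. Counts were tested with edgeR 4.0.16 in R 4.3.3 (filterByExpr, TMM, glmQLFit with legacy = FALSE, glmQLFTest, no covariates), with Benjamini-Hochberg adjustment over 14754 genes. The filter required about 0.512 CPM in 3 libraries. The standard error is the size of the fold change (log2) over the square root of the F value. DESeq2 1.42.0, other scalings and filters, robust dispersions, a replicate block and leaving out each mouse were alternatives. On counts simulated for this comparison, edgeR recovered 180 of 200 changed genes with 12 false calls among 14528 genes tested. DESeq2 recovered 181 with 24 false calls among 14754. The changed genes were drawn from genes with more counts than the mitotic median of 14.1, and all genes were given the same dispersion. The recovery of genes with low counts or smaller differences was therefore not measured. No 2 libraries of a genotype agreed within sampling noise (lowest chi-square per degree of freedom, 27.4).

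The genes and lists were chosen with earlier results of these data known. Levels in every liver are given for called genes, the 5 smallest p among the S phase and among the mitotic genes, and 11 preset cell cycle genes, and for Tet1, called genes of the further lists and Cdkn1a, Cdkn1b, Ccnd2, Ccng1, Ccng2, Myc and E2f7. Other values of the tested set are also given where they show a group. Positions and promoters are from RefSeq tables of GRCm38.p6. Figures were drawn with matplotlib 3.10.9.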

Additional observations from a re-analysis of the deposited data

Results flagged for a closer look

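In groups of 4 samples, a liver was marked as standing apart where its gap to the nearest other liver, divided by the range of the group, exceeded Dixon's critical value. Of 69 checks in the TET1 KO group 6 exceeded it, and about 3.45 are expected by chance. TET1 KO replicate 1 stood apart for Pcna (0.916), for Mcm6 (0.908), for Myc (0.904) and for the summed CPM of the further mitotic genes (0.852). It was the lowest liver for Pcna and Mcm6 and the highest for Myc and the summed mitotic genes. TET1 KO replicate 2 was the highest liver for Tk1 (0.851) and for Afmid (0.854), which overlaps Tk1.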

How the results depend on the processing

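With 14754 genes and 35 members tested, 298 genes, 2 members of the set and 1 S phase gene were called. DESeq2 and edgeR with no filter on low counts fitted 24623 genes and 42 members. DESeq2 called 1315 genes, 5 members and 4 S phase genes, and no filter gave 592, 4 and 3, and library size only and robust dispersions each gave 2 S phase genes. The block and the fit without TET1 KO replicate 4 called E2f8, Ccnd2 and Ccng1, DESeq2 called Ccnd2 and Ccng1, and library size only and no filter on low counts called Ccng1. Library size only also shifted the balance of all calls from 129 higher and 169 lower to 107 higher and 312 lower, with the median of all genes moved by -0.093. Leaving out 1 mouse gave 38 to 891 genes, 1 to 5 members, 1 to 4 S phase genes and 0 to 0 mitotic genes. The fewest genes were called without WT replicate 2 and the most without TET1 KO replicate 4, and Ccnd1 was not called without WT replicate 2 or TET1 KO replicate 1, 2 or 3. No alternative called a mitotic gene. In fits without 1 mouse, 7 of the tested members turned direction (Mcm7, Cdt1, Ccne1, Cdk1, Cenpe, Tpx2 and Foxm1, none of them called), as did Myc, with ranges of log2 fold change of -0.71 to 0.0031 for Cdk1, -0.18 to 0.14 for Foxm1, -0.21 to 0.41 for Ccne1 and -0.88 to 1.07 for Myc. The cause of these changes was not tested.

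Replicate numbers did not pair the samples, since same-numbered livers correlated at 0.209, -0.123 and -0.0964, and not every liver correlated best with its own number. With the replicate number as a block, over replicates 1 to 3, 1383 genes, 7 members and 6 S phase genes were called, and 891 genes without TET1 KO replicate 4 and without the block. Too few counts to test were found for 6 of the 23 mitotic and 1 of the 18 S phase members.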

Other observations

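Some further cell cycle genes, named after their values were seen, lay near the threshold. Spc25, encoding a kinetochore subunit, was lower in every TET1 KO liver, with 5.87 ± 1.65 CPM (SD, n = 3) in WT and 2.31 ± 0.924 CPM (SD, n = 4) in TET1 KO livers (log2 fold change -1.33, adjusted p = 0.0539, edgeR). Its partner gene Spc24 overlapped between genotypes and had a log2 fold change of 0.52 (adjusted p = 0.213). Gins2, encoding a subunit of the replicative helicase complex, had a log2 fold change of -1.42 (adjusted p = 0.0851, edgeR). It reached the limit of the filter on low counts in 3 WT libraries but in only 1 TET1 KO library, so the filter favoured lower TET1 KO values. Gins1, of the same complex, had a log2 fold change of 0.34 (adjusted p = 0.372, edgeR). Mcm10, a replication initiation factor, was higher in every TET1 KO liver (log2 fold change 0.49, adjusted p = 0.138). Whether genes of 1 complex differed from each other between genotypes was not tested.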
